A study of Mus musculus with 36 samples.

Results

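Transcript levels of 50 genes for SR proteins, heterogeneous nuclear ribonucleoproteins (hnRNPs) and other splicing factors were compared in mouse knee joint tissue. Their proteins act in the splicing of precursor mRNA, which was itself not measured. The genes were taken from a list by name and kept where they had at least 10 read counts over the 9 libraries used. All 50 met this, out of 55291 gene names in the table, and all 50 were among the 13823 genes with enough counts to be tested. They comprise 12 SR proteins, 20 hnRNPs, 10 proteins of the core spliceosome, and 8 helicases and cofactors rich in arginine and serine.

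The 9 libraries, 3 per group, came from mice at 24 h. Sham mice kept an uninjured anterior cruciate ligament (ACL), a stabilising ligament of the knee. Vehicle mice had the ACL injury and received 0.9% saline, and inhibitor mice had the ACL injury and received an inhibitor of protein kinase C (PKC) that the labels do not name. Strain, sex, age and dose are not given in the sources used here. The labels call each group 3 biological replicates but do not say that each was a separate mouse, so p-values measure only the spread between these libraries. The labelled tissue is knee joint, while another protocol of the series speaks of joint cartilage. Marker genes of cartilage, bone, muscle, fat, endothelium and blood lineages were counted in every library. The material was thus a mixture, in which fewer cells of a type and less RNA per cell cannot be told apart.

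Each library had 124 to 202 M counts in all, of which protein-coding genes held 1.09 to 4.51 M. The libraries inhibitor 1 and inhibitor 2 stood apart. Protein-coding genes made up 1.81% of all counts in inhibitor 1 and 3.51% in inhibitor 2, against 0.646% to 1.47% in the other 7. The 50 splicing genes had 14354 (sham 3) to 68796 counts (inhibitor 2) per library. Values below are normalised counts, which are counts brought to the same effective library size, the mean of the 9. The scaling factors behind these sizes were uneven, at 1.73 for inhibitor 1 and 3.64 for inhibitor 2, against 0.633 to 1.01 in the other 7. Fold changes and adjusted p-values come from edgeR's quasi-likelihood test over all 13823 genes, with a threshold of 0.05.

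SR proteins carry an RNA-binding domain and a tail of arginine-serine repeats, bind enhancer sequences in exons and recruit the spliceosome. Their tails are phosphorylated by SR protein kinases, which moves them between nuclear speckles, transcription sites and, for some, the cytoplasm. hnRNPs coat nascent transcripts and often oppose SR proteins at splice sites. The core spliceosome recognises the 5′ splice site through the U1 particle and the branch point and 3′ splice site through SF1, U2AF and the U2 particle. Many genes of these families make transcripts with retained introns or poison exons that limit their own protein levels.

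Of the 50 genes, 4 passed the test in a comparison: Srsf2, Srsf4, Snrnp70 and Ddx39b. Their promoters are shown because these are the members that were called. The bases come from RefSeq (build GRCm38.p6), printed 5′ to 3′ on the gene's strand and ending next to the gene start. Capitals mark every match, on either strand, to the GC box (GGGCGG), the CCAAT box (CCAAT), an ETS factor core (CCGGAAG) or an NRF1 core (GCATGCGC). These motifs were chosen after the sequences were seen. The printed stretches are chr11:116853095-116853344 (minus strand), chr4:131873387-131873616 (plus strand), chr7:45395743-45395992 (minus strand) and chr17:35241496-35241745 (plus strand).
Srsf2: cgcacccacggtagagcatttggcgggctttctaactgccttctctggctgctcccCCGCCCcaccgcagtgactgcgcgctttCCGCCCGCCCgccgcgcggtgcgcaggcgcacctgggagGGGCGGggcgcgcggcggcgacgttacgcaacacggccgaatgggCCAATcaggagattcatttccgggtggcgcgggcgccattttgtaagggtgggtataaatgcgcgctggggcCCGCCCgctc
Srsf4: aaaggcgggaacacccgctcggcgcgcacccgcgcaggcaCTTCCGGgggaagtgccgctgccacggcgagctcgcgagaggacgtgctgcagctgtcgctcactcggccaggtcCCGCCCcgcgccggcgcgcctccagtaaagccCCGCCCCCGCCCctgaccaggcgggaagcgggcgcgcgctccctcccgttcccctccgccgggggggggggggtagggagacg
Snrnp70: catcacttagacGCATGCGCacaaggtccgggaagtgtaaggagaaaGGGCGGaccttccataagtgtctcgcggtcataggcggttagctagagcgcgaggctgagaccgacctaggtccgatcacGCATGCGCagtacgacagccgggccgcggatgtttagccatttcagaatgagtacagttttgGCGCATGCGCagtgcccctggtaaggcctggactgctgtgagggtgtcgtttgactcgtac
Ddx39b: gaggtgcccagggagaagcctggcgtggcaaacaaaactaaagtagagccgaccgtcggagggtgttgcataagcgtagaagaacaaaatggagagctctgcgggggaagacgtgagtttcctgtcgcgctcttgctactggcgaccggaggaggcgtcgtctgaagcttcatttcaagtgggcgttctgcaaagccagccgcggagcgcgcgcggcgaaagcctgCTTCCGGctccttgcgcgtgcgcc

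Srsf2 had 5 GC box matches and 1 CCAAT box, in 250 bases of 69.6% GC. Srsf4 had 3 GC boxes and 1 ETS core in 230 bases of 77.4% GC. Snrnp70 had 4 NRF1 core matches, of which a pair overlap on opposite strands, and 1 GC box, at 57.6% GC. Ddx39b had 1 ETS core and no other match, at 60.8% GC. No motif was present in all 4. Over 250 bases upstream, promoters of 48 of the 50 genes were found in the table. A GC box was in 64.6% of these 48 and in 32.96% of 27025 promoters of all genes. The CCAAT box was in 54.2% against 34.5%, the ETS core in 29.2% against 7.07% and the NRF1 core in 6.25% against 2.31%. Median GC content was 60.8% in the 48 promoters and 52.0% in all. A match is a run of letters and was not tested as a binding site.

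At 24 h after ACL injury, no member of the splicing gene list passed the test against sham. Log2 fold changes ran from −0.57 for Rbm25, a U1-associated cofactor, to 0.44 for the hnRNP Hnrnpr, with a median of 0.02 over the 50 genes and −0.02 over all genes tested. None called among 50 compares with 42 of 13823 genes called, or 0.304%. None had an unadjusted p under 0.05 either, against 8.28% of all genes, and DESeq2 called none. The 95% interval of the fold change lay within 2-fold either way for 48 of 50 genes, all except Snrnp70 and Rbm25, against 44.4% of all genes. Many of all genes had fewer counts and wider intervals. The median standard error (SE) was 0.210 over the 50 genes and 0.353 over all genes, so these shares also reflect precision. Vehicle libraries lay apart from sham for Ptbp1, all higher, and Sf3b2, all lower. In all genes 8.2% lay apart upwards and 8.76% downwards.

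Against vehicle, the injured knees of mice given the PKC inhibitor had lower Srsf2, which encodes the SR protein SC35 of nuclear speckles. It fell 2.13-fold (log2 fold change −1.09, SE 0.23, adjusted p = 0.0417) and was the 1 member called of 50, where 0.731% of all genes were called and 0.702% were called lower. An unadjusted p under 0.05 was found for 7 members, Srsf2, Srsf4, Hnrnpu, Sf1, Snrnp70, Ddx39b and Acin1, all with negative values. Over all genes 13.4% had such a p in either direction and 8.25% downwards. In 9 members every inhibitor library lay under every vehicle library: those 7 without exception, U2af2 and Rbm25, against 10.4% of all genes. Ddx5 alone lay above in all 3, against 8.44%. The median log2 fold change was −0.08 over the 50 genes and 0.04 over all genes, and it was 0.04 over the 50 without inhibitor 1. The 95% interval lay within 2-fold for 43 of 50 members, against 41.4% of all genes. Here too precision differed, with a median SE of 0.208 over the members and 0.345 over all genes.

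Against sham, inhibitor knees had lower levels of 3 members: the SR protein Srsf4, the U1 particle protein Snrnp70 and the export helicase Ddx39b. Of all genes 3.95% were called and 2.68% were called lower. An unadjusted p under 0.05 was found for 8 members, all negative: Srsf2, Srsf4, Srsf11, Hnrnpu, Snrnp70, Rbm25, Ddx39b and Acin1. Without sham 3, Rbm25 was at −0.30 (adjusted p = 0.627), against −1.02 with it. Over all genes the share was 18% in either direction and 10.1% downwards. The libraries lay apart downwards for 8 members (Srsf2, Srsf4, Srsf11, Hnrnpu, Sf3b2, Snrnp70, Ddx39b and Acin1), against 11.6% of all genes, and upwards for Ddx5, against 11.2%. The median was 0.01 over the 50 genes and 0.03 over all genes. Over the 50 it was −0.13 with the muscle level as a covariate and 0.10 without inhibitor 1. Of the 50 intervals, 43 lay within 2-fold, against 37.7% of all genes. The median SE was 0.209 over the 50 genes and 0.346 over all genes. This comparison shares its inhibitor libraries with the one against vehicle and its sham libraries with that of injury.

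**Figure D1:**
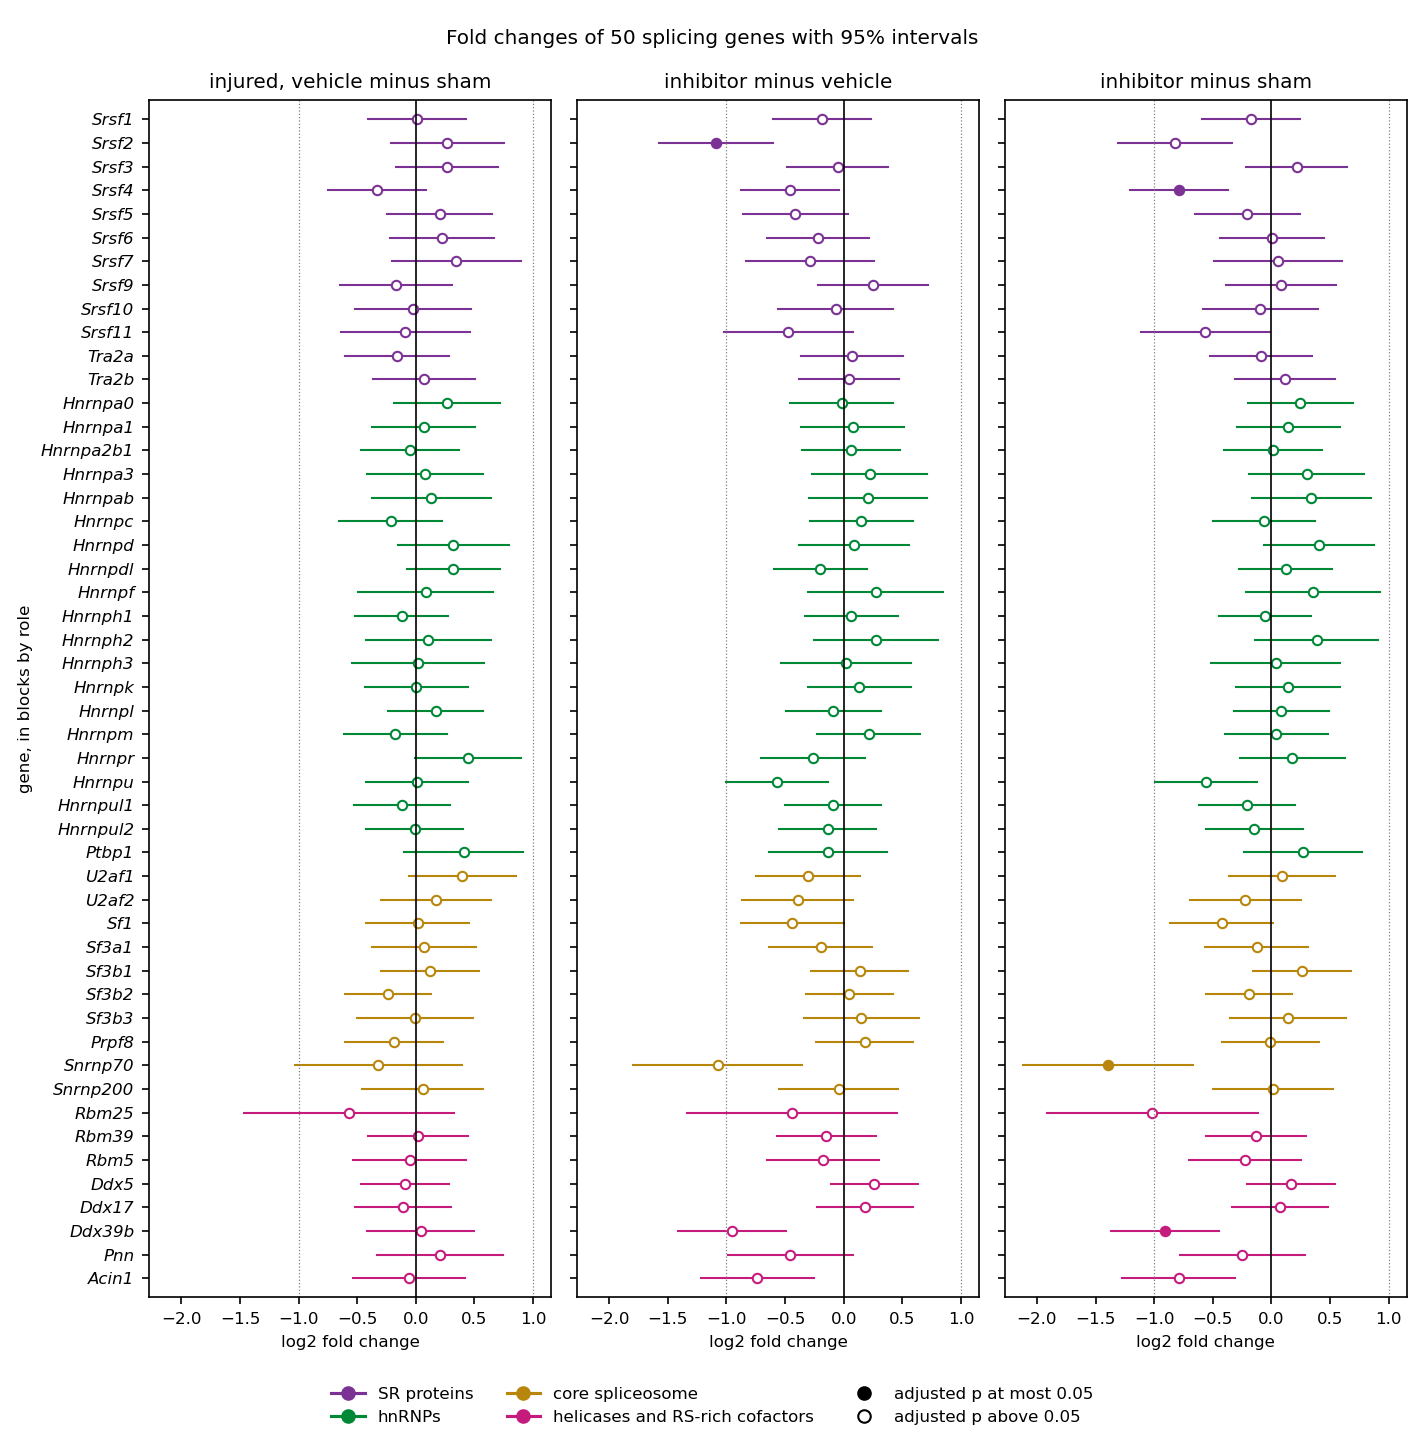
Log2 fold changes (points) with 95% intervals (lines) of the 50 genes in 3 comparisons of 3 against 3 libraries, coloured by role; filled points passed an adjusted p of 0.05 and dotted lines mark 2-fold. No point is filled for injury, Srsf2 is filled for inhibitor against vehicle, and Srsf4, Snrnp70 and Ddx39b are filled for inhibitor against sham.

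The SR proteins had median log2 fold changes of 0.04 for injury, and with the inhibitor −0.20 against vehicle and −0.09 against sham. Srsf2 (chromosome 11, 116849901 to 116853094 on mm10) had 701, 528 and 811 normalised counts in the sham libraries 1 to 3, 809, 958 and 687 with vehicle, and 300.02, 376 and 479 with the inhibitor. All 3 inhibitor libraries were under every other library, while sham and vehicle overlapped. Against sham its log2 fold change was −0.82 (SE 0.23, adjusted p = 0.0553). Srsf1, the SR protein first found as a splicing factor and a regulator of splice site choice, was set beside it within each library. The ratio of Srsf2 to Srsf1 counts was 0.696, 0.592 and 0.998 in sham and 0.838, 1.03 and 0.828 with vehicle. With the inhibitor it was 0.474, 0.440 and 0.522, again the lowest. The ratio needs no scaling, but it holds the same Srsf2 counts and is not a separate test.

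Srsf4 (chromosome 4, 131873617 to 131901706), an SR protein with a long arginine-serine tail, had 321, 252 and 292 normalised counts in sham, 266, 229 and 192 with vehicle, and 167, 163 and 170.0 with the inhibitor. The inhibitor libraries were nearly equal and lay under both other groups, and the vehicle libraries lay between, overlapping sham. The fall against sham was 1.73-fold (log2 −0.79, SE 0.20, adjusted p = 0.0354), while the difference from vehicle was −0.46 (adjusted p = 0.322). As a ratio to Srsf6, another SR protein with a pair of RNA-binding domains, the inhibitor values (0.656, 0.483 and 0.487) overlapped the vehicle values (0.788, 0.559 and 0.555), and both lay under sham (0.860, 0.814 and 1.16).

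Srsf11, which can contact the 3′ splice site machinery, had 195, 185 and 304 in sham, 153, 286 and 198 with vehicle and 138, 145 and 179 with the inhibitor. The inhibitor libraries lay under sham, while inhibitor 3 was above vehicle 1 (log2 fold change against vehicle −0.47, adjusted p = 0.453). Srsf7, a shuttling SR protein that also takes part in mRNA export, had 256, 144 and 138 in sham, 204, 239 and 243 with vehicle and 139, 215 and 209 with the inhibitor. It showed the largest positive injury value of the SR proteins, 0.34 (adjusted p = 0.789), with sham 1 above all other libraries. Tra2b, a Transformer-2 protein that binds exonic enhancers, had 195, 197 and 157 in sham, 193, 188 and 196 with vehicle and 179, 239 and 175 with the inhibitor, with inhibitor 2 highest and overlap throughout. For the other 6, Srsf3, Srsf5, Srsf6, Srsf9, Srsf10 and Tra2a, together with Srsf1, log2 fold changes lay between −0.41 (Srsf5, inhibitor against vehicle, adjusted p = 0.42) and 0.27 (Srsf3, injury, adjusted p = 0.794), and no comparison separated their groups.

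The hnRNPs as a group lay close to no change, with medians of 0.07 for injury, and with the inhibitor 0.06 against vehicle and 0.13 against sham, and none was called. The lowest value belonged to Hnrnpu, a nuclear scaffold protein also known as SAF-A. It had 1963, 1656 and 2054 normalised counts in sham, 1944, 1904 and 1870.1 with vehicle and 1076, 1185 and 1602 with the inhibitor. Every inhibitor library lay under the other 6, and inhibitor 3 was close to sham 2. The log2 fold change was −0.57 against vehicle (SE 0.20, adjusted p = 0.227) and −0.56 against sham (adjusted p = 0.152). It was the only hnRNP with an unadjusted p under 0.05 in any of the 3 comparisons.

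Ptbp1, the repressor that binds polypyrimidine tracts, had 572, 486 and 392 in sham, 641, 635 and 649 with vehicle and 379, 763 and 610.1 with the inhibitor. The vehicle libraries were close to each other and above all sham libraries, while the inhibitor libraries spanned both (injury log2 fold change 0.41, SE 0.24, adjusted p = 0.703). Hnrnpr, an hnRNP of neuronal and nuclear mRNA particles, had 167, 203 and 153 in sham, 261, 271 and 181 with vehicle and 189.8, 199 and 205 with the inhibitor. Vehicle 1 and 2 were the highest, and vehicle 3 overlapped sham (0.44, SE 0.21, adjusted p = 0.611). Hnrnpdl, a relative of the mRNA decay factor Hnrnpd, had 269.8, 220.2 and 238 in sham, 322, 319 and 269 with vehicle and 242, 263 and 288 with the inhibitor, with overlap in all comparisons.

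Hnrnpf and Hnrnph2 bind G-rich tracts and had the largest positive values of the hnRNPs against vehicle under the inhibitor. Hnrnpf had 1030.2, 905 and 539 in sham, 927, 831 and 866 with vehicle and 660.0, 1240.3 and 1269 with the inhibitor. Hnrnph2 had 287, 218 and 151 in sham, 268, 201 and 243 with vehicle and 212, 327 and 322 with the inhibitor. In both genes inhibitor 2 and 3 were the highest libraries and inhibitor 1 lay far lower, inside the vehicle range or under it, and sham 3 was the lowest. Their log2 fold changes against vehicle were 0.27 (SE 0.27, adjusted p = 0.693) and 0.28 (SE 0.25, adjusted p = 0.66).

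The other 14 hnRNPs were Hnrnpa0, Hnrnpa1, Hnrnpa2b1 and Hnrnpa3, the A/B type proteins that bind UAG-like motifs, Hnrnpab, Hnrnpc, which binds uridine tracts, Hnrnpd, Hnrnph1, Hnrnph3, the poly(C)-binding Hnrnpk, the CA-repeat-binding Hnrnpl, Hnrnpm, Hnrnpul1 and Hnrnpul2. Their log2 fold changes lay between −0.21 (Hnrnpc, injury, adjusted p = 0.851) and 0.41 (Hnrnpd, inhibitor against sham, adjusted p = 0.361). Groups overlapped in every comparison for all 14. All 20 intervals lay within 2-fold in both comparisons with sham, and 19 in the one with vehicle, the exception being Hnrnpu.

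Within the core spliceosome, Snrnp70 stood out. It encodes the 70 kDa protein of the U1 particle, which marks the 5′ splice site (chromosome 7, 45376453 to 45395742). Normalised counts were 831, 607 and 1724 in sham, 764, 937 and 825 with vehicle and 374, 321 and 508 with the inhibitor. All inhibitor libraries lay under the other 6, and sham 3 was far above every other library. Against sham it fell 2.63-fold (log2 −1.40, SE 0.33, adjusted p = 0.0382), but without sham 3 the value was −0.85 (adjusted p = 0.0937). Against vehicle the log2 fold change was −1.08 (SE 0.33, adjusted p = 0.172), and it passed without sham 3 (−1.08, adjusted p = 0.0479). Its ratio to Snrnp200, the helicase that unwinds the U4/U6 pair, was 2.77, 1.84 and 7.68 in sham, 3.62, 2.35 and 2.97 with vehicle and 1.16, 1.07 and 2.102 with the inhibitor. Here inhibitor 3 was above sham 2, so the separation from sham was not complete on this measure.

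Sf1, which binds the branch point before U2 arrives, had 595, 443 and 599.7 in sham, 588, 529 and 539 with vehicle and 308, 445 and 467 with the inhibitor. The inhibitor libraries lay under vehicle and overlapped sham through sham 2 (against vehicle −0.44, SE 0.21, adjusted p = 0.371). U2af2, the large U2AF subunit that binds the polypyrimidine tract, had 376, 259.6 and 388 in sham, 369, 433 and 349 with vehicle and 221, 344 and 310.2 with the inhibitor. It was lower than in every vehicle library, by a small margin for inhibitor 2 (−0.39, SE 0.22, adjusted p = 0.466). U2af1, the small subunit that reads the AG at the 3′ splice site, had 181, 156 and 147 in sham, 163, 235 and 240.1 with vehicle and 164, 191 and 161 with the inhibitor, with vehicle 2 and 3 highest and overlap throughout.

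Sf3b2 and Sf3b3 are subunits of the SF3b complex of the U2 particle. Sf3b2 had 589.5, 587 and 641 in sham, 472, 535 and 533 with vehicle and 509, 555 and 531 with the inhibitor. All 6 injured libraries lay under sham, with small differences (injury −0.24, SE 0.17, adjusted p = 0.777). Sf3b3 had 342, 313 and 196 in sham, 261, 309 and 279.6 with vehicle and 239, 371 and 334 with the inhibitor, without any separation. The branch point protein Sf3b1, the SF3a subunit Sf3a1, the catalytic core protein Prpf8 and Snrnp200 had log2 fold changes between −0.20 (Sf3a1, inhibitor against vehicle) and 0.26 (Sf3b1, inhibitor against sham), with overlapping groups in all 3 comparisons. As medians, the 10 core genes had 0.04 for injury, −0.12 against vehicle and −0.07 against sham.

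**Figure D2:**
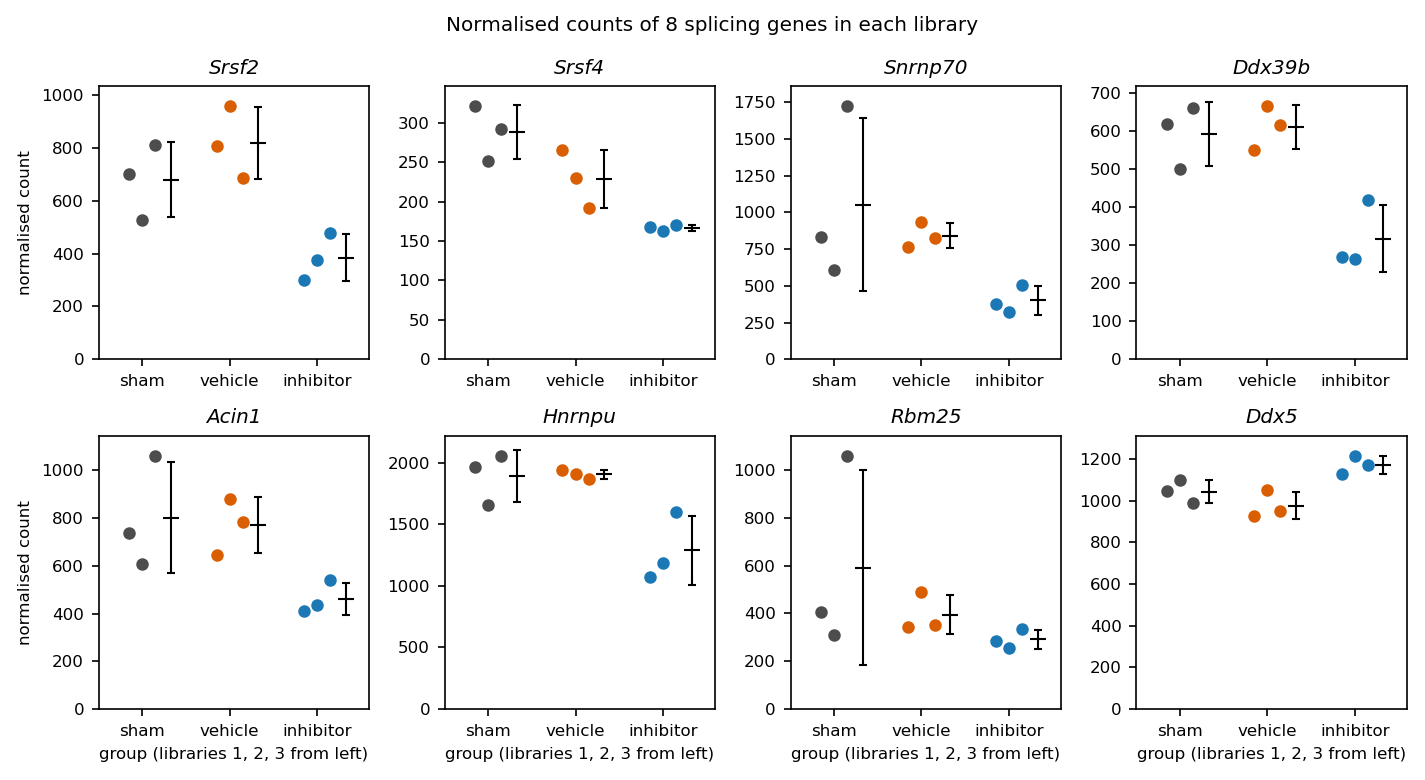
Normalised counts (vertical axes, from 0) of 8 splicing genes in each library, with the mean and SD of the 3 libraries of a group in black. The inhibitor points lie under sham and vehicle for Srsf2, Srsf4, Snrnp70, Ddx39b, Acin1 and Hnrnpu; sham 3 is far above the rest for Snrnp70 and Rbm25; the inhibitor points of Ddx5 lie above both other groups.

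Among the helicases and cofactors, Ddx39b had the lowest value against vehicle, and Rbm25 against sham. Ddx39b encodes UAP56, an RNA helicase that acts in spliceosome assembly and mRNA export (chromosome 17, 35241746 to 35253707). It had 619.7, 499 and 662 normalised counts in sham, 552, 666 and 615 with vehicle and 270.0, 263 and 418 with the inhibitor. All inhibitor libraries lay under the other 6, and sham and vehicle were alike in level. It fell 1.88-fold against sham (log2 −0.91, SE 0.22, adjusted p = 0.0303), and the difference from vehicle was −0.95 (SE 0.22, adjusted p = 0.0566). As a description, since Ddx5 lay apart upwards, the ratio of Ddx39b to Ddx5 counts was 0.593, 0.455 and 0.670 in sham, 0.596, 0.633 and 0.645 with vehicle and 0.239, 0.216 and 0.356 with the inhibitor. The absence of overlap follows from the separate values of both genes and adds nothing to them.

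Ddx5, the helicase p68, was the only member whose inhibitor libraries lay above both other groups. It had 1045, 1099 and 988 in sham, 926, 1052 and 953 with vehicle and 1129, 1215 and 1173 with the inhibitor. The gap was small (against vehicle 0.26, SE 0.18, adjusted p = 0.54). Its close paralogue Ddx17 had 884, 785 and 607 in sham, 648, 763 and 698 with vehicle and 762, 760.0 and 872 with the inhibitor, and the groups overlapped (0.18, adjusted p = 0.717).

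Acin1, a scaffold subunit of a complex that joins the exon junction (chromosome 14, 54642161 to 54686931), resembled Snrnp70 over 9 libraries (Pearson r 0.97). It had 736, 608 and 1059.8 in sham, 646, 881 and 783 with vehicle and 411, 438 and 539 with the inhibitor. Sham 3 was the highest library and the 3 inhibitor libraries were the lowest, without passing the test (−0.74 against vehicle, SE 0.23, adjusted p = 0.158; −0.79 against sham, adjusted p = 0.0613). Pnn, a speckle and desmosome-associated partner of the same junction proteins, had 153, 159 and 181 in sham, 146, 237 and 183 with vehicle and 104, 126 and 188 with the inhibitor. Inhibitor 3 overlapped the other groups (−0.45 against vehicle, adjusted p = 0.457).

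Rbm25 (chromosome 12, 83631236 to 83683123) had 405, 308 and 1058 in sham, 344, 489 and 351 with vehicle and 284, 255 and 334 with the inhibitor. Sham 3 was far above any other library. The injury value was −0.57 (SE 0.40, adjusted p = 0.773), and 0.15 without sham 3 (adjusted p = 0.949). Rbm5, a regulator of apoptosis gene splicing, had 212, 211 and 158 in sham, 155, 239 and 168 with vehicle and 181, 140.2 and 179 with the inhibitor, with overlap throughout. Rbm39, a U2AF-like cofactor, had log2 fold changes of 0.02, −0.15 and −0.13 in the 3 comparisons. Medians over the 8 genes were −0.05 for injury, −0.31 against vehicle and −0.24 against sham.

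Leaving out each of the 9 libraries in turn, each of the 4 called genes kept its call in 2 of 9 fits and lost it in 7. The log2 fold change of Srsf2 against vehicle stayed between −1.28 and −0.94, with adjusted p from 0.0205 to 0.224, and the call was lost without sham 1, sham 2, inhibitor 1, inhibitor 2 or any vehicle library. Srsf4 against sham ran from −0.89 to −0.71 (adjusted p 0.0362 to 0.151), and was lost without vehicle 2, vehicle 3, inhibitor 2, inhibitor 3 or any sham library. Snrnp70 ran from −1.68 to −0.85 (0.0163 to 0.123) and was lost without sham 1, sham 3, inhibitor 1, inhibitor 2 or any vehicle library. Ddx39b ran from −1.16 to −0.79 (0.00927 to 0.115) and was lost without inhibitor 2 or any sham or vehicle library. Without inhibitor 1 and 2 together, the 2 libraries that stood apart, the inhibitor group is 1 library, assumed to vary like the other groups, and 20 genes were called against vehicle and 174 against sham. The values were then −0.77 for Srsf2 against vehicle, and −0.75, −1.04 and −0.49 for Srsf4, Snrnp70 and Ddx39b against sham, with adjusted p from 0.264 to 0.465 and no member called.

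The median coefficient of variation over the 50 genes was 15.7% in sham, 10.2% with vehicle and 18.4% with the inhibitor, while over all tested genes, many of them lower in counts, it was 24.2%, 23.3% and 26.0%. Rbm25 varied most in sham (69.1%), Snrnp200 with vehicle (32.1%) and Ptbp1 with the inhibitor (33.1%). The tightest values were those of Ptbp1 with vehicle (1.13%) and Srsf4 with the inhibitor (2.18%). Inhibitor 1 was the lowest library for 18 of the 50 genes and the highest for none, and sham 3 was the lowest for 14 and the highest for 7. Inhibitor 2 was the highest for 12 and sham 1 for 11. As a share of protein-coding counts, however, the 50 genes were lowest in sham 1, at 0.904%, against 1.10% to 1.58% in the other libraries. The mean log2 CPM of the 50 genes ran from 0.89 in inhibitor 1 to 1.36 in vehicle 2, and was 1.19 and 1.27 in inhibitor 2 and 3.

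**Figure D3:**
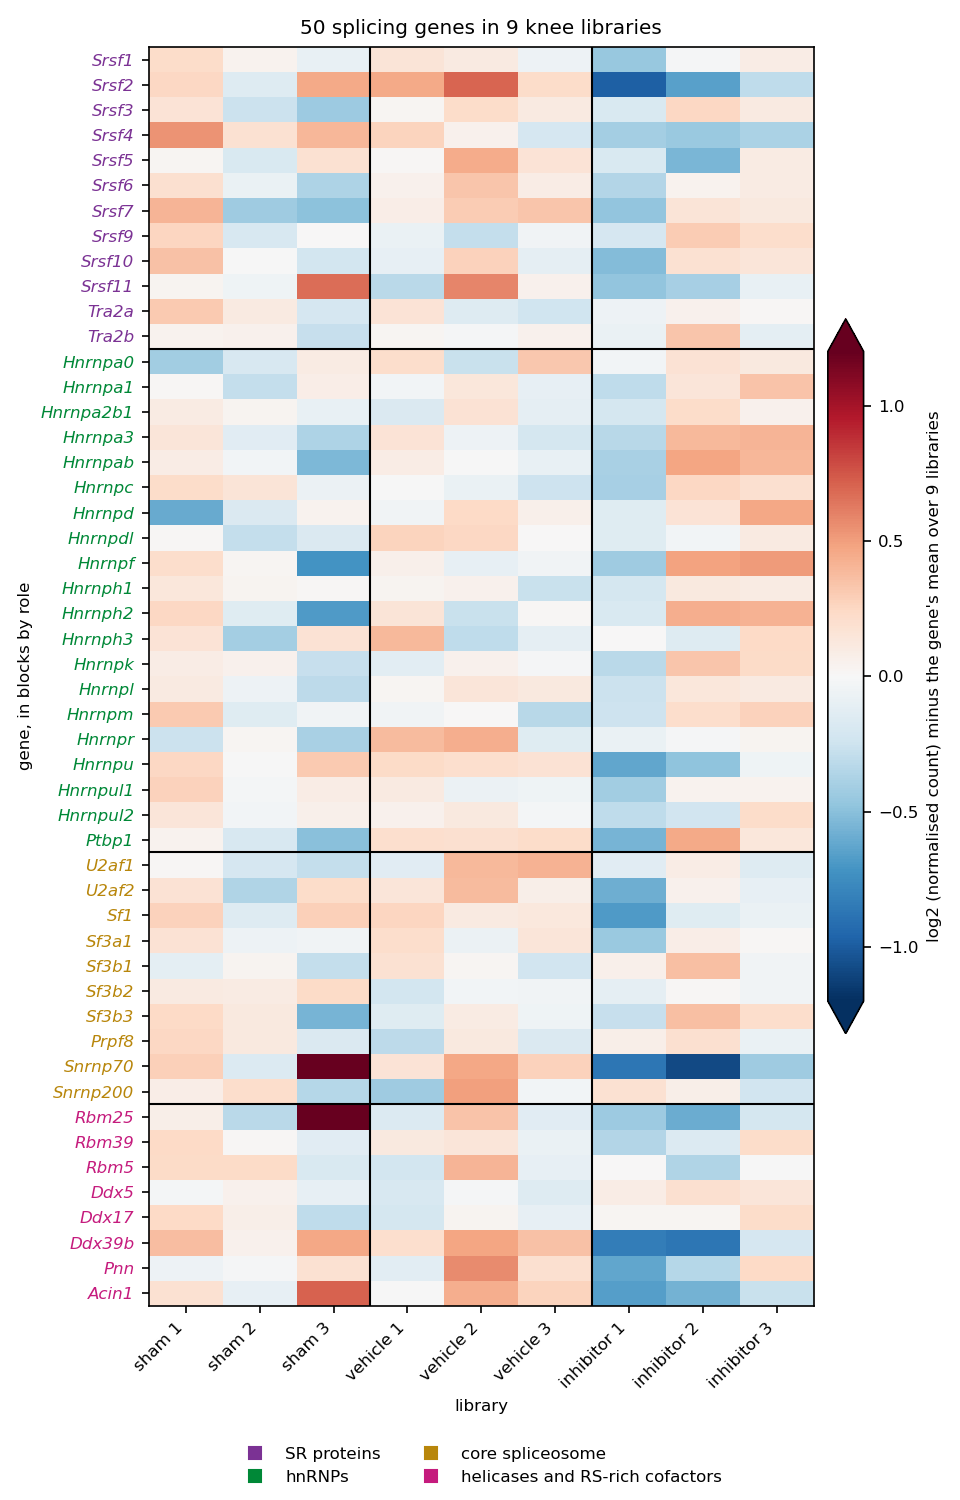
Log2 normalised count of each of the 50 genes (rows, coloured by role) in each of the 9 libraries (columns), as a difference from the gene's mean over the libraries; red is higher and blue lower. Snrnp70 and Rbm25 are darkest red in sham 3, most rows are blue in inhibitor 1, and Srsf2, Hnrnpu, Snrnp70, Ddx39b and Acin1 are blue in all inhibitor columns.

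**Figure D4:**
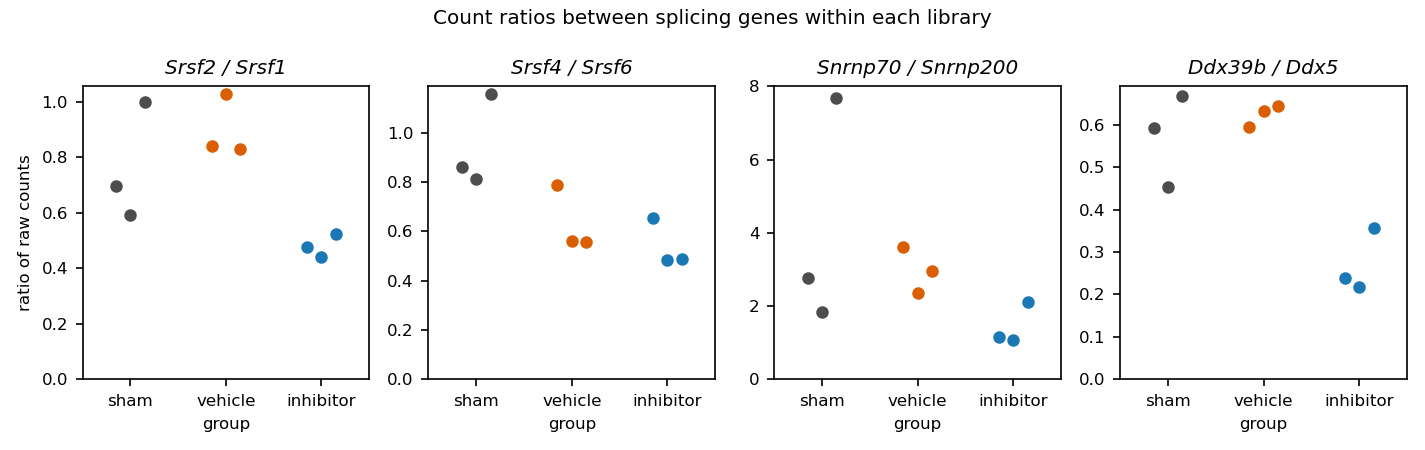
Ratio of raw counts between a called gene and another gene of the same role within each library (vertical axes, from 0), by group. Ratios of Ddx39b to Ddx5 and of Srsf2 to Srsf1 are lowest in the 3 inhibitor libraries, while the inhibitor ratios of Srsf4 to Srsf6 overlap vehicle and those of Snrnp70 to Snrnp200 overlap sham.

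Markers of tissue parts also differed between groups, in both directions. For inhibitor against vehicle, the median log2 fold change was −1.21 for keratinocyte, −1.06 for cartilage and −0.88 for B lineage markers. It was −0.55 for erythroid, −0.44 for osteoblast and osteocyte and −0.17 for neutrophil markers. Positive medians were 0.91 for skeletal muscle, 0.67 for endothelium, 0.50 for fat and 0.21 for monocytes and macrophages. In summed normalised counts, only inhibitor 1 lay above vehicle for muscle (35048) and endothelium (2843). Inhibitor 2 and 3 lay under every vehicle library in both, at 3232 and 6349 against 6920 to 8574 for muscle. For endothelium they were at 674 and 854, against 1002 to 1195 with vehicle. The summed normalised count of 10 cartilage genes, all 10 with counts in every library, was 9125 to 26873 in sham with the highest value in sham 3, 8743 to 11413 with vehicle, and 2414, 2015 and 5414 in inhibitor 1 to 3. Snrnp70 and Rbm25 were likewise highest in sham 3. Snrnp70, Ddx39b, Srsf2 and Acin1 were likewise lowest in the inhibitor libraries, with inhibitor 3 above the other inhibitor libraries. Srsf2 was highest in vehicle 2, at a cartilage sum of 8743, and Srsf4 in sham 1. Ddx39b was at 666 in vehicle 2 and 662 in sham 3. With the cartilage level as a covariate, a setting added after the data were seen, no member was called in any comparison, and of all 13823 genes 0 were called in either comparison with the inhibitor and 6 for injury. Snrnp70 against sham was then 0.13 (adjusted p = 0.999), Srsf2 against vehicle −0.59 (adjusted p = 0.972), Srsf4 against sham −0.63 (adjusted p = 0.963) and Ddx39b against sham −0.26 (adjusted p = 0.999). The cartilage level and the inhibitor group differ together and cannot be told apart here.

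Osteoblast and osteocyte genes, 10 of 10 counted in every library, summed to 65646 to 112480 in sham, 62245 to 72127 with vehicle and 20508 to 50394 with the inhibitor. B lineage genes summed to 626 to 720 in sham, 503 to 538 with vehicle and 302 to 430 with the inhibitor. Neutrophil genes summed to 20718, 16846 and 23488 in sham, 11772, 9263 and 10525 with vehicle, and 10580, 19437 and 9182 with the inhibitor. Against sham, inhibitor libraries had 7 of 12 neutrophil, 4 of 9 cartilage, 4 of 8 B lineage and 1 of 6 keratinocyte markers called lower, and 1 of 10 monocyte and macrophage markers called higher. Against vehicle 1 B lineage marker was called lower, and for injury 1 neutrophil marker was called lower. Skeletal muscle genes were highest in inhibitor 1 (35048) and sham 3 (27916) and lay between 3232 and 12958 in the other 7 libraries. Summed levels of the other lists were 2328 to 4313 for monocytes and macrophages, 2411 to 9401 for erythroid cells, 535 to 3122 for fat, 674 to 2843 for endothelium and 45.4 to 438 for keratinocytes. Inhibitor 1 was highest for fat and endothelium, and inhibitor libraries were lowest for keratinocytes. With the muscle level as a covariate 1226 genes were called against sham, among them Srsf2, Srsf4, Hnrnpu, Ddx39b and Acin1. Snrnp70 was not called in that fit, at a log2 fold change of −1.26 (adjusted p = 0.122). The part of these tissue differences in the levels of the splicing genes was not tested beyond the covariate fits.

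**Figure D5:**
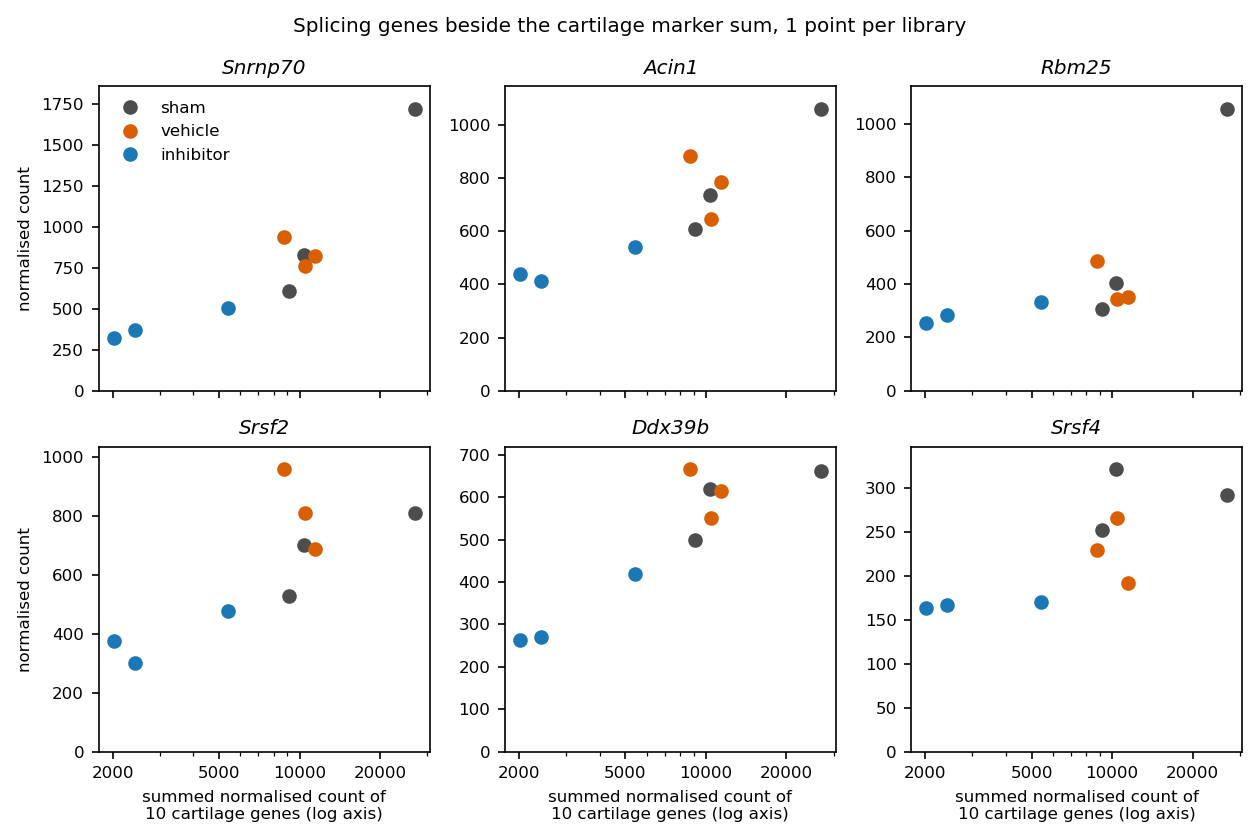
Normalised counts of 6 splicing genes (vertical axes, from 0) against the summed normalised count of 10 cartilage genes (horizontal log axis), 1 point per library, coloured by group. The 3 inhibitor libraries lie at the lower left, at cartilage sums of 2015 to 5414, and sham 3 lies at the far right, at 26873.

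Per kilobase of exon, the highest levels over all libraries belonged to Hnrnpf (302 normalised counts per kb), Hnrnpa1 (297), Hnrnpa3 and Hnrnpab (267 each), Hnrnpa2b1 (219) and Srsf2 (212). The lowest were Tra2b (20.7), Rbm5 (11.8) and Hnrnpr (9.16). Srsf2 led the SR proteins, Snrnp70 (100.5) the core spliceosome and Ddx5 (184) the helicases and cofactors. The order is rough, since exon length here includes retained-intron models, and reads that map to several places were counted in full at each. For 13 members, pseudogene models with at least 97% identity over 300 bases exist, up to 17 for Hnrnpa3 and 6 for Hnrnpf, so the levels of those genes are uncertain. Hnrnpa3, Hnrnpm, Hnrnpul2, Sf3b3, Ddx5 and Ddx39b share exon bases with another gene model on the same strand, mostly a small RNA. Of the called genes, Srsf2, Srsf4 and Snrnp70 had neither.

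The share of annotated exon bases outside any coding transcript varied widely among the members, with a median of 32.3% over the 50. In 9 genes every inhibitor library lay under vehicle. Their shares were 75.5% in Snrnp70, 72.0% in Rbm25, 46.7% in Acin1, 45.1% in U2af2 and 36.6% in Srsf4. Hnrnpu had 34.1%, Srsf2 32.3%, Sf1 27.0% and Ddx39b 21.2%. Members with overlapping groups also reached high shares, such as Tra2a and Rbm5 with 74.0% each. The median was 36.6% over the 9 genes whose inhibitor libraries lay under vehicle, 28.0% over the other 41 and 15.2% over 12191 tested genes with a coding model. Across genes, Spearman's rho between this percentage and the log2 fold change of inhibitor against vehicle was −0.35 over the 50 genes and −0.08 over the 12191. Genes are not independent replicates and here share the same libraries. For injury rho was −0.27 and 0.02, and for inhibitor against sham −0.43 and −0.06. Against vehicle, it was −0.38 and −0.13 for the number of retained-intron models. For models marked for nonsense-mediated decay it was −0.36 and −0.08, and for all transcripts −0.19 and −0.11. For GC content of the longest coding transcript it was −0.23 and −0.16, and for that transcript's length 0.09 and −0.01. For exon bases it was −0.08 and −0.03, and for the number of coding transcripts 0.06 and −0.03. Gene counts do not separate retained-intron from coding transcripts, so isoforms were not measured.

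Other genes of the splicing pathway, fixed as lists with earlier results known, had 1 of 119 tested genes called against vehicle and 4 against sham, all lower, and none for injury. These counts are near the shares of all genes called lower, 0.702% and 2.68%, or called in either direction, 0.731% and 3.95%. SR protein kinases had a median log2 fold change of −0.62 against vehicle over 8 genes, of which 5 had inhibitor libraries under all vehicle libraries, as had 10.4% of all genes. Clk2, a kinase of SR proteins in the nucleus, had 173, 132 and 207 in sham, 126, 144 and 158 with vehicle and 73.5, 56.1 and 83.1 with the inhibitor, with all inhibitor libraries lowest. It fell 2.43-fold against sham (adjusted p = 0.0105), with an adjusted p of 0.0673 against vehicle. Prpf4b, a kinase of the U4/U6.U5 particle, had 269.8, 227 and 279, then 146, 328 and 291, then 140.3, 112 and 161 in the same order, and inhibitor 3 was above vehicle 1, while all 3 lay under sham (adjusted p = 0.14 against vehicle).

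Other arginine-serine and speckle proteins had a median of −0.30 against vehicle and −0.31 against sham over 25 genes, with 23 of 25 negative in each. Of all 13823 genes, 6382 were negative against vehicle and 6577 against sham. Srrm2, a speckle scaffold, was at 1629, 1636 and 1910.4 in sham, 1452, 2839 and 2176 with vehicle and 845, 571 and 872 with the inhibitor, and passed in both comparisons (adjusted p = 0.0233 and 0.0184). Sfswap, a regulator of splicing related to a fly suppressor, was at 273, 283 and 483 in sham, 221, 286 and 263 with vehicle and 136, 110.2 and 167 with the inhibitor, and fell 2.52-fold against sham (adjusted p = 0.0103). Rsrp1 had an adjusted p of 0.0652 against vehicle, with inhibitor libraries at 427, 229 and 288 under vehicle at 578, 685 and 595. Genes were named here because they were called or changed most with the inhibitor, so their low inhibitor values are no separate evidence.

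Small particle proteins, by contrast with the kinases in sign, had a median of 0.09 against vehicle and 0.19 against sham over 34 genes, and this difference between lists was not tested. Sart1, a protein of the tri-particle, was the 1 called, lower against sham (444, 342 and 577 in sham, 339, 317 and 327 with vehicle, 221, 219 and 295 with the inhibitor, adjusted p = 0.0324). Lsm7 and Sf3b6, ring and branch point proteins, had log2 fold changes against vehicle of −0.44 (adjusted p = 0.557) and 0.49 (adjusted p = 0.504). Sf3b6 lay apart in every comparison, at 31.4, 34.1 and 37.7 in sham, 38.2, 38.0 and 54.6 with vehicle and 59.3, 65.8 and 58.4 with the inhibitor. Exon junction, export and decay proteins had a median of −0.07 against vehicle over 22 genes, with Upf3b at −0.49 (adjusted p = 0.688) and Smg5 at −0.35 (adjusted p = 0.506).

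Tissue-restricted regulators gave the largest values of the remaining 28 splicing regulators without passing. Rbm20, a splicing factor of striated muscle, had 24.4, 9.18 and 9.43 in sham, 4.98, 4.75 and 4.09 with vehicle and 83.3, 5.84 and 31.2 with the inhibitor. Nova1, known from neurons, had 3.49, 10.5 and 17.0, then 1.66, 7.13 and 5.46, then 48.0, 7.40 and 10.4. In both genes inhibitor 1, the library with the highest muscle sum, was far above the rest. The nuclear RNAs Malat1 and Neat1 were also highest in inhibitor 1 (21067 and 4601), against 5389 to 16758 and 623 to 1083 in the other libraries.

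Outside these lists, the tested genes whose log2 CPM followed the mean of the 50 most closely over the 9 libraries were Kif2c (Pearson r 0.96), Arhgap11a (0.95), Cenph (0.94), Zfp821 (0.94) and Ska3 (0.94). All 5 were lowest in inhibitor 1, as was the mean of the 50. Within the list, the genes most like Snrnp70 were Acin1 (0.97), Ddx39b (0.91) and Rbm25 (0.90), and those most like Srsf2 were Hnrnpu (0.95), Ddx39b (0.94) and Acin1 (0.91). These likenesses describe 9 libraries and were chosen as the highest among many.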

How the data were processed

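Total RNA of mouse knee joints was depleted of ribosomal RNA and sequenced as paired reads of 100 bp, per the labels' protocols. The authors deposited raw read counts per gene name, made with featureCounts 2.0.1 on GENCODE M25 exons (mm10, reverse strand, multi-mapping and multi-overlapping reads counted in full), per the file headers. The submitters' processing notes name HISAT2, whose version is not given in those sources. The other count tables have 27 columns whose names fit no label, and these were not used. Columns were given to samples by name.

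Counts were filtered with filterByExpr, scaled by TMM and fitted with edgeR 4.0.16 (R 4.3.3), robust quasi-likelihood, 1 mean per group over all 9 libraries. P-values are two-sided and adjusted by the Benjamini-Hochberg method over 13823 genes. Each SE was derived from the log2 fold change and its F statistic (absolute change over root F). Log2 CPM used a prior count of 2. DESeq2 1.42.0 was an alternative, beside other scaling, no filter, fewer groups, covariates and left-out libraries. The fit was tested on simulated data. Biotypes and transcript models came from GENCODE M21 of the same build, and pseudogene copies from BLAST+ 2.17.0. Tables and plots were made with Python 3.11.15, pandas 2.3.3, numpy 2.4.6 and matplotlib 3.10.9.

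The members and all gene lists were chosen with earlier results of these data known. Each member is named; values in every library are given for members called in a comparison, for the 3 largest changes per role with the inhibitor and with injury, and for the highest and lowest per kilobase. Other pathway genes are named where called, or as the 2 largest changes of their list. The cell type marker lists were cartilage, skeletal muscle, neutrophil, monocyte and macrophage, B lineage, erythroid, osteoblast and osteocyte, adipocyte, endothelial and keratinocyte genes. Depth varied from 1.09 to 4.51 M protein-coding counts per library, which with 3 libraries a group limits the precision.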

Additional observations from a re-analysis of the deposited data

How the results depend on the processing

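For injury, 42 genes were called, and 155 with DESeq2, 262 with no filter, 291 with the third group left out of the fit, 24 with the replicate block, 223 with the muscle covariate, 6 with the cartilage covariate and 301 without inhibitor 1 and 2 together. Leaving out 1 library gave 1 to 234. No splicing gene was called in any of these settings, and their median of 0.02 became −0.11 with the muscle covariate. For inhibitor against vehicle, 101 genes and 1 splicing gene were called. DESeq2 gave 355 and 2, no filter 554 and 3, leaving out the third group 3 and 0, the muscle covariate 316 and 2, the cartilage covariate 0 and 0, omission of inhibitor 1 and 2 together, which leaves 1 inhibitor library assumed to vary like the other groups, 20 and 0, and of inhibitor 2 and sham 3 together 43 and 0. Leaving out 1 library gave 0 to 256 genes and 0 to 2 splicing genes. For inhibitor against sham, 546 genes and 3 splicing genes were called. The same settings gave 885 and 5, 1056 and 6, 198 and 0, 1226 and 5, 0 and 0, 174 and 0, and 90 and 0, and leaving out 1 library gave 141 to 841 and 0 to 3. Snrnp70 against sham was 0.13 with the cartilage covariate. The cause of these shifts was not tested. The cartilage covariate and the joint omission of inhibitor 2 and sham 3 were added after seeing the data.

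The replicate numbers did not pair the libraries (same-number correlations from −0.24 to 0.07). With the replicate block, 103 genes and 0 splicing genes were called against vehicle, and 420 genes with 2 splicing genes, Snrnp70 and Ddx39b, against sham.

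Gene counts hold no isoform information, and 3 libraries a group left the intervals of 7 splicing genes reaching beyond 2-fold in each comparison with the inhibitor.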
